A study of Rattus norvegicus with 18 samples.

Results

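The genes described here carry out DNA replication or control entry into it. A list of 53 genes was taken, and each gene was measured by the transcript cluster that the platform's annotation gives to that gene alone, the brightest one where a gene had several. This gave 40 genes: 15 of 17 for origin licensing and the replicative helicase, 14 of 17 for the polymerases, clamp and ligase, 4 of 5 for nucleotide supply, 2 of 9 for cyclins, Cdk2 and the E2F factors, and 5 of 5 for chromatin copying and repair. The remaining 13 (Mcm5, Orc1, Rpa1, Pola1, Pole, Tk1, Ccnd1, Ccnd2, Ccnd3, Cdk2, E2f1, E2f2 and E2f8) had no such cluster and were not analysed here, so the last subset but one came down to the cyclins Ccne1 and Ccne2. The series as a whole holds 36685 transcript clusters, of which 14824 name exactly 1 gene.

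Ventricular cardiomyocytes of neonatal Wistar rats were studied in 6 groups, with 3 biological replicates a group and thus 18 arrays of the Rat Gene 2.0 ST type. In the stretch experiment cells were cyclically strained for 24 h with 10 µM KB-R7934 (ST+KB-R7934), strained for 24 h without it (ST), or kept unstretched (ST control). The tachycardia experiment had cells paced at 8 Hz for 3 h with 10 µM KB-R7934 (TC+KB-R7934), cells paced at 8 Hz without it (TC), and cells paced at 1 Hz (TC control). KB-R7934 is the name in the sample labels of the inhibitor of the sodium-calcium exchanger (NCXI), which the paper's text in places spells KB-R7943. Cells of all groups were cultured without serum, and BrdU, a thymidine analogue, was used against the growth of non-myocytes. The cultures were enriched in myocytes but not pure, and between 2 and 6 technical replicates were pooled for an array. The stretch experiment used collagen-coated flexible plates and the tachycardia experiment gelatin-coated dishes, so trigger, duration and surface cannot be told apart between them. Unstimulated cells with the inhibitor were not among the arrays.

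Values are log2 expression as deposited. A difference is a difference of group means on that scale with its standard error (SE), fitted with limma to an experiment's 9 arrays (n = 3 per group), and adjusted p-values are Benjamini-Hochberg values over all 36685 clusters. "The threshold" is an unadjusted limma p under 0.05 with at least a 1.2-fold change. These are the limits of the study's gene lists, although its methods name a Benjamini-Hochberg correction for the arrays and whether its p was adjusted is not stated. No gene on the list reached an adjusted p under 0.05 in any comparison, and 3 arrays a group limit how precise the values are. The means of the 40 genes over the 18 arrays lay between 5.28 and 10.3, and 0 of them lay below the lower quartile of all clusters, which was 3.75 to 3.83 by array. Any 2 arrays correlated at 0.969 to 0.988. Cardiomyocyte markers (7 genes measured) averaged 11.2 to 12.1 on every array. On a bulk array, fewer cells of a type and less RNA per cell cannot be told apart.

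Replication is prepared in G1, when ORC, Cdc6 and Cdt1 load the MCM helicase on origins, and geminin (Gmnn) blocks Cdt1 afterwards. Cyclin E with its kinase then allows Cdc45 and the GINS complex to join MCM, which makes the active helicase, and primase, the polymerases and the clamp Pcna follow. E2F transcription factors, held back by the retinoblastoma protein until late G1, drive many of these genes. Rat cardiomyocytes leave the cell cycle in the first weeks after birth, and a last round of replication without cell division leaves many of them with a pair of nuclei.

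The promoters are shown because E2F motifs are the feature these genes are best known to share and the rule for choosing them did not use it. RefSeq (GRCr8) held a promoter, 250 bases before to 50 bases after the start site, for 35 of the 40 genes, and none for Ccne2, Cdc6, Gins4, Mcm4 and Rrm2. The motif searched was TTTCCCGC, TTTGGCGC, TTTCGCGC or TTTGCCGC on either strand. It was found in 14 of the 35 promoters (40%), against 2.14% of all 33469 promoters of the table and 2.74% of the 21851 promoters of protein-coding genes. The helicase group held it in 8 of 12 promoters (66.7%), the polymerase group in 5 of 14 (35.7%), nucleotide supply in 1 of 3 (Tyms), and Ccne1 and the 5 chromatin and repair genes in none. A match is a description of the letters and not of a bound site. The 250 bases before the start site are printed 5′ to 3′ on the gene's strand, with matched bases in capitals. Gins1, Mcm6 and Mcm2 are helicase genes in which a match on each strand overlapped by 4 bases (first bases at -25, -139 and -14 from the start site). Tyms had a single match at -37, and Ccne1, the gene with the smallest p under the inhibitor during stretch, had none.
Gins1, chr3:160184670-160184919, plus strand: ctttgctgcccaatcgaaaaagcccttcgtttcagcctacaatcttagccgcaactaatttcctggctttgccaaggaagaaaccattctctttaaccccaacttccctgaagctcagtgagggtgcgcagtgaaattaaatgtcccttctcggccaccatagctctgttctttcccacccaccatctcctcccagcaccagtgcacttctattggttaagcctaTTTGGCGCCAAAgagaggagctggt
Mcm6, chr13:42404353-42404602, minus strand: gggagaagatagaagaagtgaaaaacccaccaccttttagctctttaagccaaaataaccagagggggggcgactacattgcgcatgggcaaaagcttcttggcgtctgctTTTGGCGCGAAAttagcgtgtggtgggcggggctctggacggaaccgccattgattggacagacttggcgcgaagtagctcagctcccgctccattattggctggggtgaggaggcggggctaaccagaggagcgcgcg
Mcm2, chr4:122918095-122918344, minus strand: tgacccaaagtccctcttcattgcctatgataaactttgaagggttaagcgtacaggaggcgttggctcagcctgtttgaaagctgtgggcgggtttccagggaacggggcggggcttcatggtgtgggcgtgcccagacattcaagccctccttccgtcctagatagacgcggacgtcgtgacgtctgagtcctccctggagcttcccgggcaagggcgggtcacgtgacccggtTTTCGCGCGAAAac
Tyms, chr9:120776084-120776333, minus strand: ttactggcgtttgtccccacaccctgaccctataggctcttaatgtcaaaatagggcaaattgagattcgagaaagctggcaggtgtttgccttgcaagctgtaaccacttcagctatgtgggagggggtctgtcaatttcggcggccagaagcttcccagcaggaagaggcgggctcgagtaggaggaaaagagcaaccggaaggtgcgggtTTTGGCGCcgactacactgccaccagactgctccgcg
Ccne1, chr1:99927910-99928159, minus strand: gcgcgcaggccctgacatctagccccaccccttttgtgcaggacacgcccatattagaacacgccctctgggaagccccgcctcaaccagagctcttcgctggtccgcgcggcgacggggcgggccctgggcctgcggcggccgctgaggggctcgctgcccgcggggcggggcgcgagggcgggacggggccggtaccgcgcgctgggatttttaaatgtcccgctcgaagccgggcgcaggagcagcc

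In stretched cells most replication genes had higher means than in unstretched cells. Of the 40 genes, 37 had a higher mean in ST than in ST control, against 48.9% of all clusters, and the median difference was 0.26, against -0.00 over all clusters. At the threshold 8 genes were higher and 0 were lower, where 3.12% of all clusters were higher and 4.33% lower. The 8 were Mcm4, Mcm6, Gins1, Gmnn, Prim1, Ccne1, Ccne2 and Chaf1a, with differences of 0.30 to 0.74. For 6 genes all 3 ST arrays lay above all 3 ST control arrays, which held for 5.28% of all clusters. In 24 genes ST was higher than the same-numbered control in all 3 replicates, against 15.5% of all clusters.

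With KB-R7934 during stretch the same list stood lower than in stretch alone. Of the 40 genes, 38 had a lower mean in ST+KB-R7934 than in ST, the other two being Gins3 at 0.13 and Pola2 at 0.03, and the median difference was -0.32, against 0.01 over all clusters. At the threshold 17 genes were lower and 0 were higher, where 4.52% of all clusters were lower and 4.6% higher. For 18 genes all 3 ST+KB-R7934 arrays lay below all 3 ST arrays, against 7.3% of all clusters. In 29 genes ST+KB-R7934 was lower in all 3 same-numbered pairs, against 16.7%. The stretch and the inhibitor comparison share the 3 ST arrays, so a high ST array enters both. Between them, 6 of the 8 and of the 17 genes passed the threshold in both (Mcm6, Gins1, Gmnn, Prim1, Ccne1 and Ccne2). The share of all clusters passing in both was not counted, so nothing particular to these genes can be read from the 6.

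**Figure D1:**
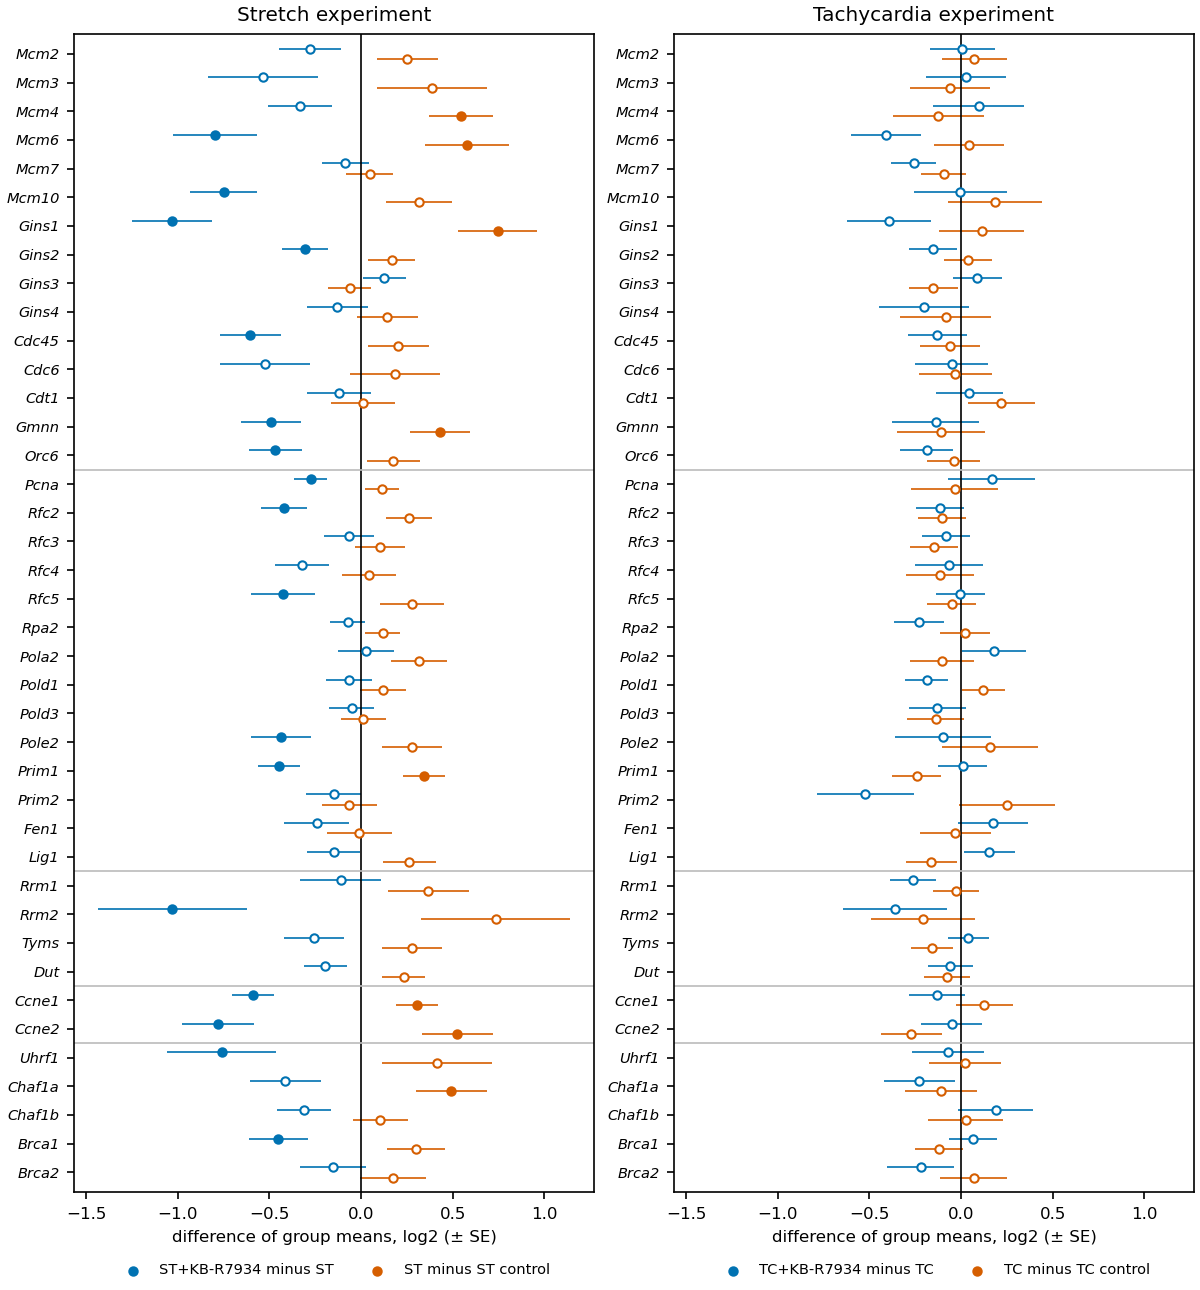
Differences of group means (log2, points) with limma SE (bars) for the 40 genes, ordered by subset with grey lines between subsets. Blue is the inhibitor comparison, orange the trigger comparison, and filled points passed the threshold. In the stretch panel 38 blue points lie left of 0 and 37 orange points right of it. In the tachycardia panel no point is filled.

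The helicase and licensing subset held the largest single difference of the stretch comparison. Gins1 (cluster 17767236), a subunit of the GINS complex that turns MCM into the active helicase, measured 6.28, 5.84 and 5.93 in ST+KB-R7934, 7.35, 6.93 and 6.87 in ST and 6.73, 6.01 and 6.16 in ST control. The 3 ST arrays lay above all 6 others. The difference was 0.74 (SE 0.22, 1.68-fold, adjusted p = 0.444) for ST over ST control and -1.03 (SE 0.22, 2.04-fold lower, adjusted p = 0.178) for ST+KB-R7934 against ST.

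Mcm6 (cluster 17683874), an MCM helicase subunit, measured 7.17, 7.06 and 7.01 in ST+KB-R7934, 8.23, 7.84 and 7.56 in ST and 7.78, 6.95 and 7.17 in ST control. Every inhibitor array lay below every ST array, while ST control replicate 1 stood above ST replicate 3. The differences were 0.58 (SE 0.23, adjusted p = 0.597) for stretch and -0.80 (SE 0.23, adjusted p = 0.31) for the inhibitor. Mcm4 (cluster 17667338), another MCM subunit, measured 7.59, 7.74 and 7.52 in ST+KB-R7934, 8.14, 8.12 and 7.60 in ST and 7.64, 7.19 and 7.38 in ST control. Its ST replicate 3 fell within the range of both other groups. Its stretch difference of 0.55 (SE 0.17, adjusted p = 0.499) passed the threshold, while the inhibitor difference was -0.34 (SE 0.17, adjusted p = 0.59) and did not.

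Cdc45 (cluster 17671080), which joins MCM and GINS in the active helicase, measured 6.24, 6.61 and 6.21 in ST+KB-R7934, 7.18, 6.97 and 6.73 in ST and 6.96, 6.56 and 6.75 in ST control. The inhibitor arrays lay below all ST arrays, and ST overlapped its control. The inhibitor difference was -0.60 (SE 0.17, 1.52-fold lower, adjusted p = 0.295) and the stretch difference 0.20 (SE 0.17). Mcm10 (cluster 17717038), needed for helicase activation, measured 5.46, 5.43 and 5.04 in ST+KB-R7934, 6.16, 6.27 and 5.75 in ST and 5.93, 5.79 and 5.52 in ST control. The inhibitor group was here the lowest of the 3 without overlap, at -0.75 (SE 0.18, adjusted p = 0.237) against ST.

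Gmnn (cluster 17715637), the inhibitor of Cdt1, measured 7.52, 7.23 and 7.17 in ST+KB-R7934, 8.03, 7.80 and 7.56 in ST and 7.58, 7.18 and 7.34 in ST control. Its differences were 0.43 (SE 0.16, adjusted p = 0.566) for stretch, with a small overlap, and -0.49 (SE 0.16, adjusted p = 0.381) for the inhibitor, with none. The loading factors Cdc6 and Cdt1 did not pass in the main fit. Cdc6 (cluster 17650958), an ATPase, measured 5.70, 5.37 and 4.98 in ST+KB-R7934, 6.16, 5.90 and 5.56 in ST and 6.10, 5.58 and 5.38 in ST control, and neither its inhibitor difference of -0.52 (SE 0.25) nor its stretch difference of 0.19 (SE 0.25) passed the threshold. Its partner Cdt1 differed by -0.12 (SE 0.18) for the inhibitor and 0.01 (SE 0.18) for stretch. When limma blocked on the replicate number, the inhibitor difference of Cdc6 did pass (adjusted p = 0.106). Same-numbered arrays of that comparison did not all meet the limit set for pairing.

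Mcm2 (cluster 17793106) measured 6.84, 6.81 and 6.80 in ST+KB-R7934, 7.40, 7.02 and 6.87 in ST and 7.14, 6.73 and 6.65 in ST control. Although its inhibitor arrays lay below all ST arrays, the difference of -0.28 (SE 0.17, adjusted p = 0.646) did not pass. Of the 15 genes of this subset, 14 had higher means in ST, 4 past the threshold (median 0.20), and 14 had lower means in ST+KB-R7934, 7 past it (median -0.47). Orc6 at -0.47 and Gins2 at -0.31 complete those 7. Within one complex values differed: Gins1 stood at -1.03 and Gins3 at 0.13 in the inhibitor comparison, and Mcm7 at -0.09 beside Mcm6 at -0.80.

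The polymerase, clamp and ligase subset showed smaller differences. Prim1 (cluster 17825446), the catalytic subunit of primase, measured 8.25, 8.25 and 8.28 in ST+KB-R7934, 8.91, 8.59 and 8.62 in ST and 8.41, 8.25 and 8.41 in ST control. All ST arrays lay above the other 6. The differences were 0.34 (SE 0.11, 1.27-fold, adjusted p = 0.508) for stretch and -0.45 (SE 0.11, 1.36-fold lower, adjusted p = 0.265) for the inhibitor. The other primase subunit, Prim2, differed by -0.06 (SE 0.15) for stretch and -0.15 (SE 0.15) for the inhibitor.

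Pcna (cluster 17777527), the sliding clamp, had replicates close together and measured 10.06, 10.08 and 10.05 in ST+KB-R7934, 10.33, 10.42 and 10.27 in ST and 10.20, 10.28 and 10.19 in ST control. Its inhibitor arrays lay below all others, at -0.28 (SE 0.09, 1.21-fold lower, adjusted p = 0.384) against ST, and its stretch difference of 0.11 (SE 0.09) did not pass. Rfc2 (cluster 17677088), a subunit of the clamp loader, measured 6.26, 6.56 and 6.27 in ST+KB-R7934, 6.78, 6.73 and 6.85 in ST and 6.65, 6.34 and 6.58 in ST control. ST lay above both other groups, with an inhibitor difference of -0.42 (SE 0.13, adjusted p = 0.327) and a stretch difference of 0.26 (SE 0.13, adjusted p = 0.681) that did not pass. Over the 14 genes, 12 had higher means in ST with 1 past the threshold (median 0.12), and 13 had lower means in ST+KB-R7934 with 5 past it (median -0.20), Rfc5 at -0.42 and the polymerase epsilon subunit Pole2 at -0.44 being the other two. The polymerase delta subunits Pold1 and Pold3 stood at -0.07 (SE 0.13) and -0.05 (SE 0.12) in the inhibitor comparison.

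In the nucleotide supply subset, Rrm2 (cluster 17815078), the regulated subunit of ribonucleotide reductase, had both the largest difference and the largest spread. It measured 8.48, 8.65 and 7.72 in ST+KB-R7934, 9.71, 9.48 and 8.74 in ST and 9.42, 8.36 and 7.96 in ST control. The inhibitor arrays lay below all ST arrays, ST replicate 3 close above the highest of them, and ST control alone overlapped both. The inhibitor difference was -1.03 (SE 0.41, 2.04-fold lower, adjusted p = 0.464), and the stretch difference of 0.73 (SE 0.41, adjusted p = 0.737) did not pass. Tyms (cluster 17867229), thymidylate synthase, measured 8.51, 8.44 and 8.12 in ST+KB-R7934, 8.75, 8.66 and 8.44 in ST and 8.64, 8.19 and 8.19 in ST control. Its groups overlapped, and neither -0.25 (SE 0.16) for the inhibitor nor 0.28 (SE 0.16) for stretch passed. All 4 genes of the subset, Rrm1 and the dUTPase Dut included, had higher means in ST (0 past the threshold) and lower means in ST+KB-R7934 (1 past it).

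Both E-type cyclins passed the threshold in both comparisons. Ccne1 (cluster 17632171), the partner of Cdk2 at the G1/S transition, measured 6.49, 6.41 and 6.33 in ST+KB-R7934, 7.17, 6.98 and 6.87 in ST and 6.75, 6.58 and 6.77 in ST control. The 3 groups did not overlap at any point: ST was highest, ST control between, and ST+KB-R7934 lowest. The inhibitor difference of -0.59 (SE 0.11, 1.51-fold lower, adjusted p = 0.145) had the smallest p of the list, and the stretch difference was 0.30 (SE 0.11, 1.23-fold, adjusted p = 0.567). Ccne2 (cluster 17797253) measured 6.65, 6.44 and 6.17 in ST+KB-R7934, 7.10, 7.50 and 6.99 in ST and 6.94, 6.70 and 6.37 in ST control. ST lay above the other 6 arrays, with -0.78 (SE 0.20, 1.72-fold lower, adjusted p = 0.254) for the inhibitor and 0.53 (SE 0.20, 1.44-fold, adjusted p = 0.559) for stretch.

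Of the chromatin and repair genes, Uhrf1 (cluster 17869279), which carries DNA methylation through replication, measured 6.57, 6.43 and 6.00 in ST+KB-R7934, 7.56, 6.99 and 6.73 in ST and 7.28, 6.24 and 6.51 in ST control. The inhibitor arrays lay below all ST arrays, at -0.76 (SE 0.30, adjusted p = 0.461), and the stretch difference of 0.42 (SE 0.30) did not pass. Chaf1a (cluster 17869318), the large subunit of the CAF-1 histone chaperone, measured 6.97, 6.99 and 6.57 in ST+KB-R7934, 7.29, 7.29 and 7.18 in ST and 7.20, 6.61 and 6.47 in ST control. It passed for stretch at 0.49 (SE 0.19, adjusted p = 0.591), with ST control replicate 1 inside the ST range, and stood at -0.41 (SE 0.19) for the inhibitor without passing. Brca1 (cluster 17661681), a homologous recombination factor, measured 5.37, 4.97 and 5.13 in ST+KB-R7934, 5.80, 5.56 and 5.47 in ST and 5.54, 5.32 and 5.08 in ST control. Its inhibitor difference was -0.45 (SE 0.16, adjusted p = 0.416) with no overlap and its stretch difference 0.30 (SE 0.16).

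**Figure D2:**
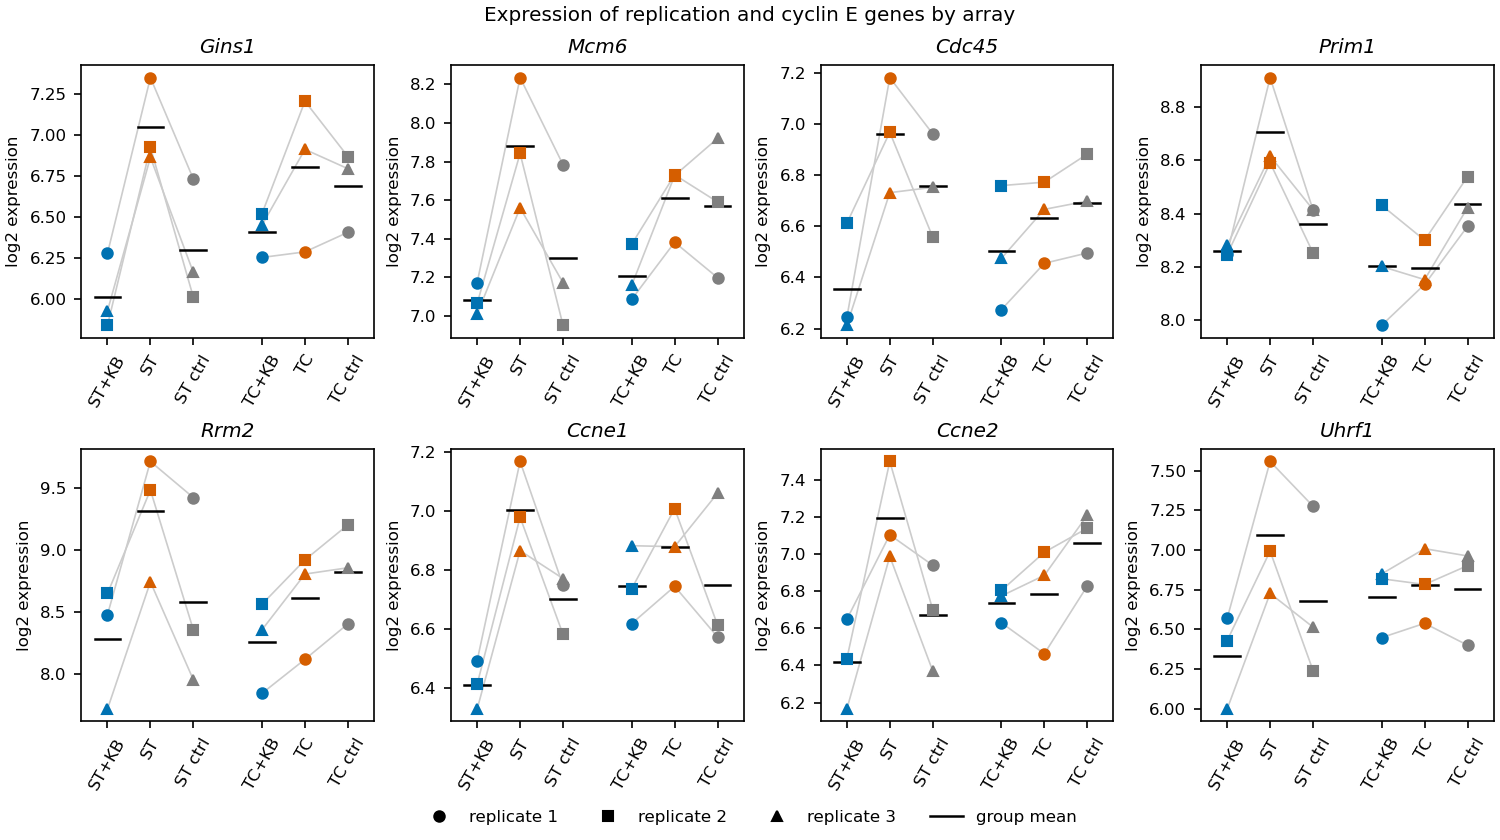
Log2 expression (vertical axes) of 8 genes on each array. Symbols give the replicate number, grey lines join equal numbers and black bars are group means; ST+KB and TC+KB stand for the groups with KB-R7934, and ctrl for control. Blue marks inhibitor groups, orange ST or TC, grey the controls. In ST the Gins1, Prim1, Ccne1 and Ccne2 arrays lie above all other stretch arrays. In the tachycardia groups the TC arrays of Prim1 and the TC+KB-R7934 arrays of Ccne2 lie below all TC control arrays.

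Set directly against unstretched cells, stretched cells with the inhibitor had a smaller median difference, with more lower than higher means. Of the 40 genes, 27 had a lower mean than in ST control and 13 a higher one. Of all clusters, 50% had a higher mean. The median difference was -0.14, against -0.00 over all clusters. At the threshold 3 genes were lower, Mcm10 at -0.43, Cdc45 at -0.40 and Ccne1 at -0.29, and 0 were higher, where 5.38% of all clusters were lower and 4.79% higher. In all 3 same-numbered pairs 13 genes were lower and 2 higher, against 18.2% and 16.6% of all clusters. All 3 inhibitor arrays lay below all ST control arrays for 5 genes and above them for 0, against 8.66% and 8.1%. With the replicate block 8 genes passed, Pola2 at 0.34 being higher and the others lower. There 6.89% of all clusters were lower and 5.66% higher. These comparisons share arrays with the previous ones.

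Replicates differed in a way that ran through the whole list. The mean of the 40 genes, as a deviation from the mean of the 9 stretch arrays, was -0.11, -0.08 and -0.28 in ST+KB-R7934, 0.38, 0.23 and 0.00 in ST and 0.14, -0.15 and -0.14 in ST control. Replicate 1 was the highest of its group for 26 genes in ST and for 29 in ST control, and ST replicate 3 was the lowest ST array for 33. ST control replicate 1 therefore lay above ST replicate 3 on the list mean, while no inhibitor array reached any ST array.

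The count of 8 genes in the stretch comparison depended on single arrays. It was 3 without ST replicate 1 or ST control replicate 2, 4 without ST replicate 2 or ST control replicate 3, 14 without ST replicate 3 and 18 without ST control replicate 1. Same-numbered ST and ST control arrays deviated together. Blocking on that number in limma, 13 genes were higher, against 4.35% of all clusters. The block added Mcm10, Rrm2, Tyms, Uhrf1 and Brca1 to the 8, and the smallest adjusted p was 0.119, for Gins1. The count of 17 in the inhibitor comparison was 10 without ST replicate 1 and 11 without ST+KB-R7934 replicate 3. The counts with an array left out stand without the share of all clusters in the same fit. A change particular to these genes cannot be read from them.

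**Figure D3:**
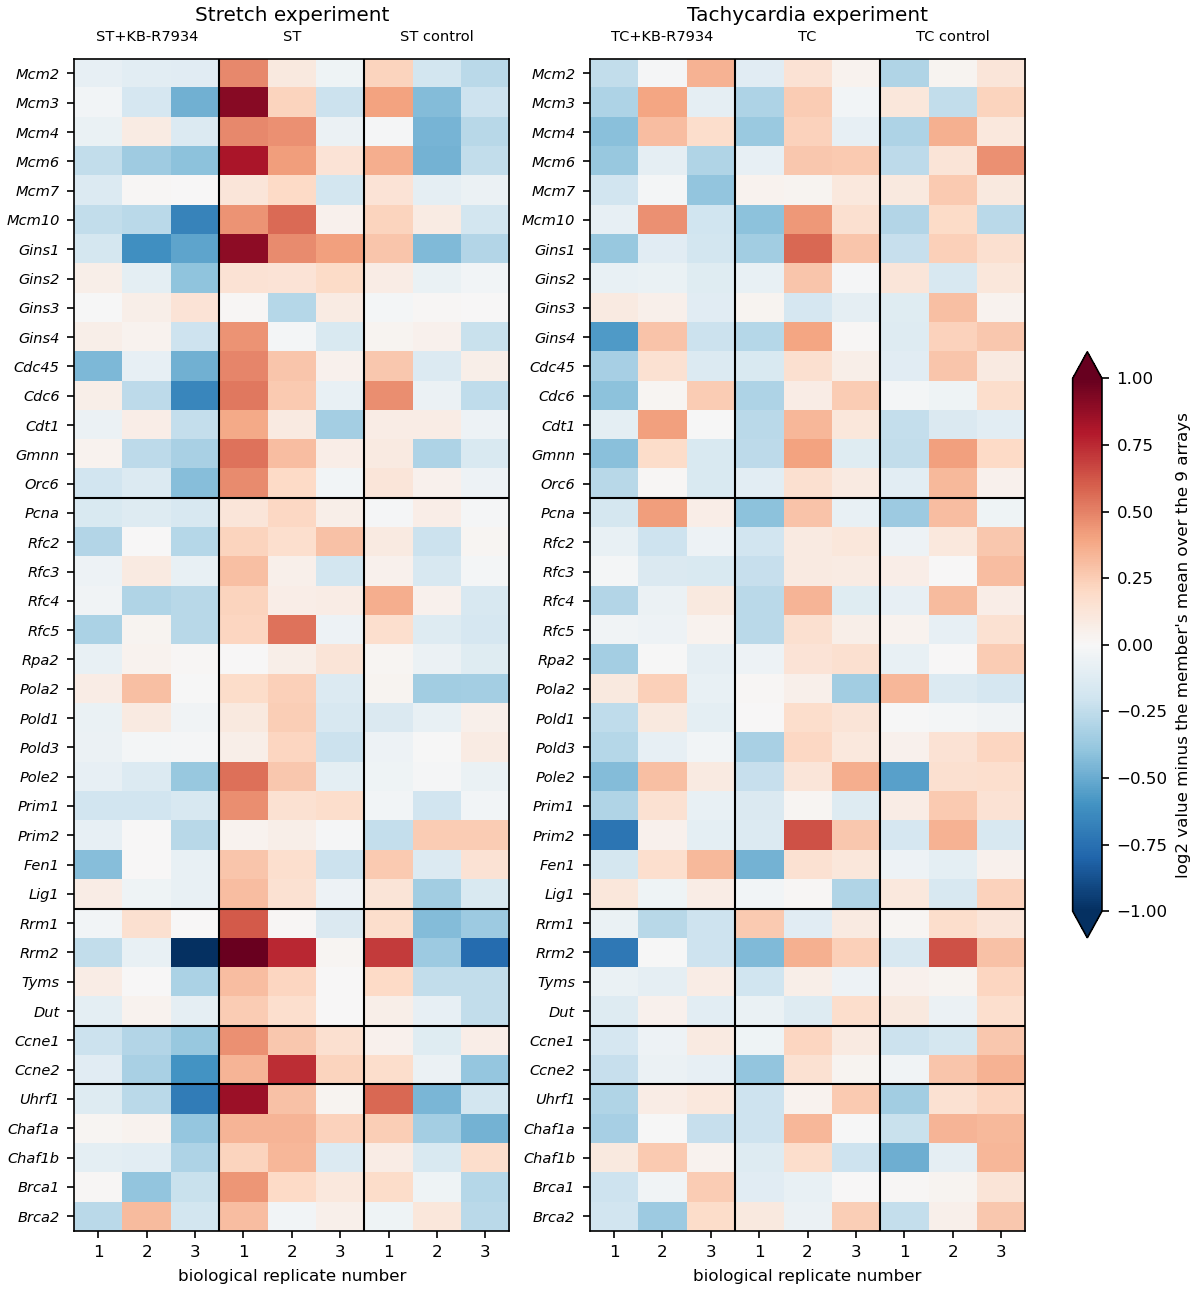
Log2 value of each gene on each array minus its mean over the 9 arrays of the experiment (colour, red higher, blue lower), with rows by subset and columns by group and replicate. On the mean of the 40 genes ST replicate 1 (0.38) is the reddest column of the stretch panel and ST+KB-R7934 replicate 3 (-0.28) the bluest. In the tachycardia panel the replicate 1 columns are the bluest in each group.

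Pacing at 8 Hz for 3 h was not accompanied by higher means across the list, as stretch was. Of the 40 genes, 14 had a higher and 26 a lower mean in TC than in TC control (median -0.06, against -0.00 over all clusters). The number past the threshold was 0 in either direction by limma, where 2.09% of all clusters were higher and 1.82% lower, and 0 genes had an unadjusted p under 0.05. When limma blocked on the replicate number, 1 gene passed, Ccne2, which was lower (2.45% of all clusters were), and 1 gene passed by the methods' least-squares test with that number. Prim1 measured 8.13, 8.30 and 8.15 in TC and 8.35, 8.54 and 8.42 in TC control, a difference of -0.24 (SE 0.13, adjusted p = 1). Its TC arrays all lay below TC control, as did those of Brca1 (-0.12, SE 0.13), and such separation downwards held for 4.2% of all clusters. Pold1 lay above TC control, at 6.11, 6.28 and 6.23 in TC and 6.10, 6.08 and 6.07 in TC control, and such separation upwards held for 4.39%. Ccne2 measured 6.46, 7.01 and 6.89 in TC and 6.83, 7.14 and 7.21 in TC control, a difference of -0.27 (SE 0.17) with overlap. Gins1 measured 6.29, 7.21 and 6.91 in TC and 6.41, 6.87 and 6.80 in TC control, and the 0.11 (SE 0.23) between them was within the replicate spread. The 95% interval of the pacing difference ran from -0.41 to 0.63 for Gins1, whose stretch difference was 0.74, and from -0.22 to 0.48 for Ccne1, whose stretch difference was 0.30.

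KB-R7934 during pacing was followed by 0 genes past the threshold by limma, where 2.5% of all clusters were lower and 3.27% higher, and by 0 at an unadjusted p under 0.05. Lower means in TC+KB-R7934 than in TC were seen for 27 genes (median -0.08, against 0.00 over all clusters), and 16 genes were lower in all 3 same-numbered pairs, against 14.7% of all clusters. Here too same-numbered arrays deviated together. When limma blocked on that number, 4 genes were lower, Mcm6 at -0.41 (SE 0.14), Gins1 at -0.39 (SE 0.14), Prim2 at -0.52 (SE 0.13) and Rrm2 at -0.36 (SE 0.10), with adjusted p of 0.435 to 0.533 and 3.67% of all clusters lower. Mcm6 measured 7.09, 7.37 and 7.16 in TC+KB-R7934 and 7.38, 7.73 and 7.73 in TC, with every inhibitor array below every TC array. Rrm2 measured 7.85, 8.56 and 8.36 in TC+KB-R7934 and 8.12, 8.92 and 8.81 in TC, lower within each number but overlapping. Pcna ran the other way, at 10.27, 10.86 and 10.51 in TC+KB-R7934 and 10.04, 10.73 and 10.37 in TC (0.17, SE 0.24). Against TC control, TC+KB-R7934 had 2 genes lower at the threshold, Mcm7 at -0.35 and the ribonucleotide reductase subunit Rrm1 at -0.29, and 0 higher, where 3.95% of all clusters were lower and 4.7% higher.

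Other genes followed through both experiments overlapped between the tachycardia groups. Mcm2 measured 6.85, 7.08 and 7.44 in TC+KB-R7934, 6.98, 7.24 and 7.13 in TC and 6.79, 7.12 and 7.22 in TC control. Ccne1 measured 6.62, 6.74 and 6.88 in TC+KB-R7934, 6.74, 7.01 and 6.88 in TC and 6.57, 6.61 and 7.06 in TC control. Uhrf1 measured 6.45, 6.82 and 6.85 in TC+KB-R7934, 6.54, 6.78 and 7.01 in TC and 6.40, 6.90 and 6.96 in TC control. No group stood apart for these genes. Tyms measured 8.15, 8.13 and 8.28 in TC+KB-R7934, 8.01, 8.27 and 8.16 in TC and 8.25, 8.24 and 8.42 in TC control. Cdc6 measured 5.08, 5.51 and 5.74 in TC+KB-R7934, 5.18, 5.56 and 5.74 in TC and 5.47, 5.44 and 5.67 in TC control, again with overlap between all groups. The list mean deviated by -0.23, 0.06 and -0.03 in TC+KB-R7934, -0.18, 0.17 and 0.06 in TC and -0.11, 0.12 and 0.15 in TC control. Replicate 1 was thus the lowest array of each group here, for 27, 32 and 29 of the 40 genes.

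Other genes of the cell cycle were measured for comparison. Of 15 mitosis and G2/M genes, 15 had lower means in ST+KB-R7934 than in ST, 10 past the threshold (median -0.71), among them the mitotic cyclin Ccnb1 at -0.86 (SE 0.21, adjusted p = 0.234) and the kinase Aurkb at -0.70 (SE 0.20, adjusted p = 0.316). In ST against ST control 15 of the 15 had higher means and 0 passed (median 0.34), with Foxm1, a transcription factor of G2/M genes, at 0.46 (SE 0.21) and Aurkb at 0.38 (SE 0.20). In TC against TC control 15 had lower means and 0 passed, and in TC+KB-R7934 against TC 2 of 15 were lower past the threshold, the mitotic kinase Plk1 at -0.62 and the kinesin Kif20a at -0.54.

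Of 24 further replication genes, 1 was higher in ST, Wdhd1 at 0.30 (SE 0.10), which ties the helicase to polymerase alpha, and the next by p, the initiation factor Ticrr, stood at 0.45 (SE 0.22) without passing. In ST+KB-R7934, 6 of the 24 were lower than in ST (median -0.21), led by Wdhd1 at -0.66 (SE 0.10, adjusted p = 0.0971) and the exonuclease Exo1 at -0.60 (SE 0.13, adjusted p = 0.21). Of these 24, TC against TC control gave 1 lower gene, Mcm8 at -0.30 (SE 0.13), followed by Rpa3 at -0.28 without passing, and TC+KB-R7934 against TC gave 1 lower gene, Rpa3 at -0.31 (SE 0.13), followed by Wdhd1 at -0.36 without passing.

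Of 9 other G1/S regulators, 1 was lower in ST than in ST control, the transcription factor Myc at -1.18 (SE 0.23, adjusted p = 0.25), and the retinoblastoma gene Rb1 stood at -0.21 (SE 0.11) without passing. With the inhibitor 0 of the 9 passed against ST, Myc at 0.51 (SE 0.23) and the G1 kinase Cdk4 at 0.25 (SE 0.11) having the smallest p. In the tachycardia comparisons 0 of the 9 passed, E2f5 at 0.37 (SE 0.18) and Myc at 0.19 (SE 0.15) having the smallest p for pacing, and the ubiquitin ligase subunit Fbxw7 at -0.22 (SE 0.11) and E2f5 at -0.32 (SE 0.18) for the inhibitor.

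Markers of other cells moved in the same comparison as the replication genes. All 10 macrophage and leukocyte markers had lower means in ST+KB-R7934 than in ST, 7 past the threshold (median -1.33), and their mean level was 5.39 to 6.19 in ST+KB-R7934, 6.19 to 7.73 in ST and 6.41 to 7.43 in ST control. In TC+KB-R7934 against TC, 5 of the 10 were lower past the threshold (median -0.53). Between ST and ST control, 4 of the 10 had higher means and 0 passed (median -0.12). Of 10 fibroblast markers, 9 had higher means in ST than in ST control with 0 past the threshold (median 0.22), and their mean level was 9.19 to 9.33 in ST+KB-R7934, 9.14 to 9.68 in ST and 8.84 to 9.61 in ST control. With the inhibitor 2 of them, Col1a1 and Col1a2, were lower and Dcn was higher. Cardiomyocyte markers had a median difference of 0.12 for the inhibitor (1 of 7 higher past the threshold) and 0.10 for stretch (0 of 7), endothelial markers -0.14 (1 of 6 lower) and 0.12 (0 of 6), and the 2 mural markers 0.02 and 0.32 (0 past it). Endothelial markers averaged 5.03 to 5.55 by array, near the median of all clusters (5.26 to 5.34). The part of these cells in the results on replication genes was not tested.

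**Figure D4:**
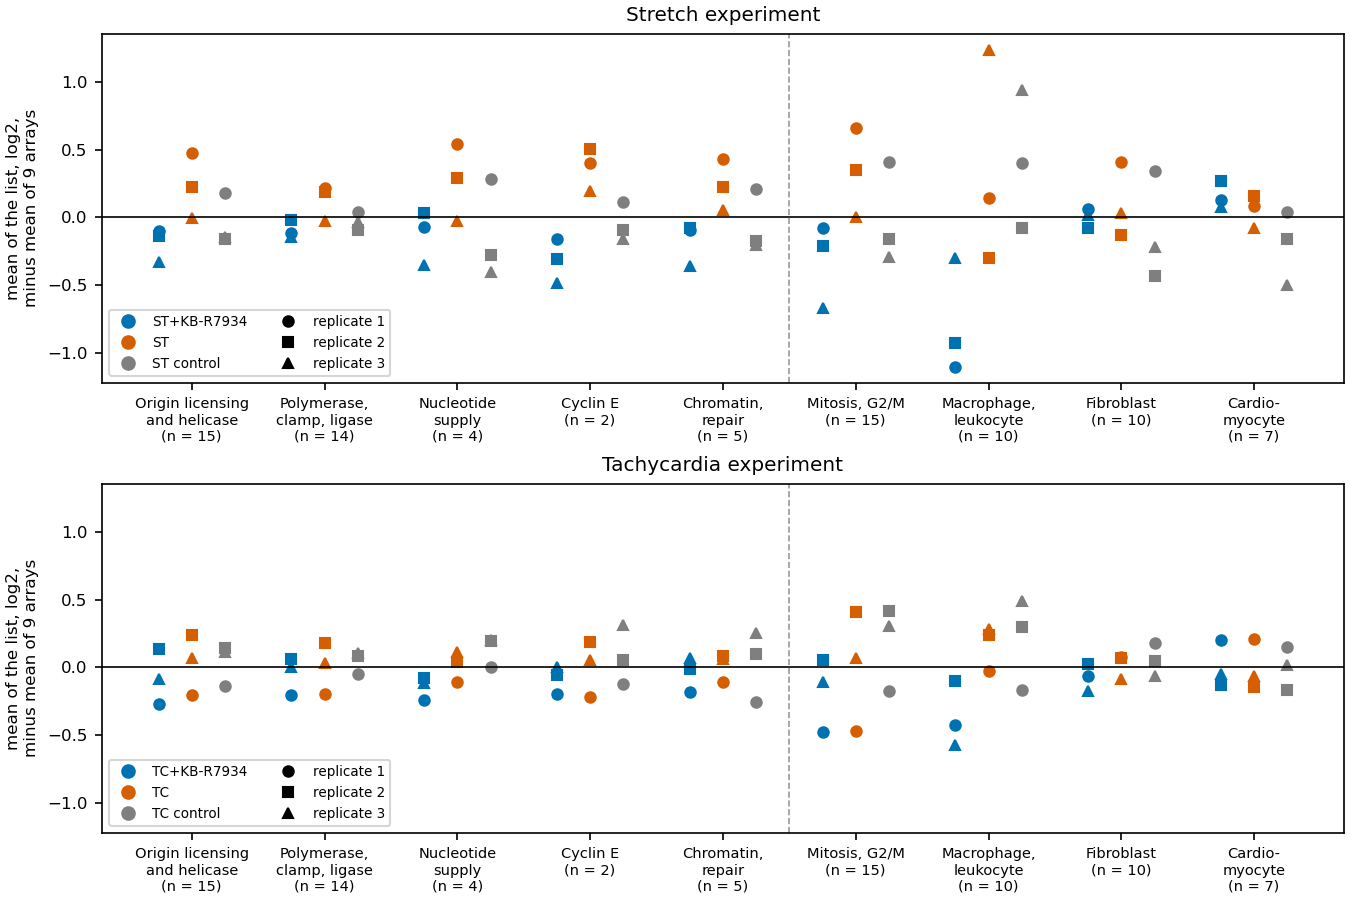
Mean of each gene list on each array (log2) minus its mean over the 9 arrays of the experiment, with groups by colour, replicates by symbol and the number of genes under each name. Replication subsets stand left of the dashed line, other lists right of it. In the stretch panel the inhibitor arrays lie below all ST arrays for the helicase, cyclin E and chromatin subsets, and for the mitosis list as well. The macrophage list is highest on ST replicate 3, the array on which the mean of the replication genes was lowest within ST.

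Whether the 2 triggers differed was tested with the difference of their effects over all 18 arrays. Between the stretch and the tachycardia effect 3 genes passed the threshold, Prim1 at 0.59 (SE 0.17), Tyms at 0.43 (SE 0.20) and Ccne2 at 0.80 (SE 0.27), all higher for stretch, where 2.61% of all clusters were higher and 3.41% lower, and the smallest adjusted p was 0.592. Between the inhibitor's effect on ST and on TC 5 genes passed, all more negative during stretch, Mcm10 at -0.75 (SE 0.33), Prim1 at -0.45 (SE 0.17), Ccne1 at -0.46 (SE 0.19), Ccne2 at -0.73 (SE 0.27) and Brca1 at -0.52 (SE 0.21), where 3.04% of all clusters were lower and 3.09% higher, and the smallest adjusted p was 0.780. A limma fit that blocked on the replicate number within each experiment was run as well. In only 1 of the 2 effects of each difference did same-numbered arrays correlate at over 0.1 for every pair. For stretch minus tachycardia 11 genes passed with this block, all higher (4.35% of all clusters were), with a smallest adjusted p of 0.204. With the same block 13 genes passed for the inhibitor's effects, all lower (4.94% of all clusters were), with a smallest adjusted p of 0.207.

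Genes with and without an E2F motif can be set side by side, with no test of the difference. The 14 genes with a match had a median of 0.26 for stretch, 3 of them past the threshold, and the 21 without a match had a median of 0.23, also with 3 past it. For the inhibitor during stretch the medians were -0.20 with 4 of 14 past the threshold and -0.32 with 11 of 21. Gins1 and Mcm6, with overlapping matches on both strands, passed in both comparisons, Mcm2, with the same arrangement, in neither, and Ccne1, with no match in this window, in both.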

How the data were processed

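The deposited values are log2 expression per transcript cluster of Affymetrix Rat Gene 2.0 ST arrays, summarised and normalised by the authors in Partek Genomics Suite; the normalisation method and the scan dates are not given in the sources used here. Groups and replicate numbers came from the sample labels, which call the arrays biological replicates. Genes were named from GEO's platform annotation (1 symbol on 14824 clusters, several on 829, none on 21032), and the brightest cluster stood for a gene. The genes and all lists were chosen with earlier results of these data known. Differences were fitted with limma 3.58.1 in R 4.3.3 over the 9 arrays of an experiment (18 for differences between triggers), with no replicate block, and the script was tested on simulated data. Per-array values are given for up to 3 genes of each subset and comparison with the smallest p past the threshold and for 9 always-named genes. Same-numbered arrays correlated in their deviations at 0.12 to 0.29 for ST with ST control and at 0.13 to 0.25 for TC+KB-R7934 with TC, over 0.1 for every pair. For these comparisons the blocked fit is given beside the main one. Differences, SE and adjusted p come from the unblocked fit unless the block is named. The other comparisons did not meet this rule. Promoters came from RefSeq (GRCr8). Alternatives are listed in the closing section.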

Additional observations from a re-analysis of the deposited data

Results flagged for a closer look

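Several genes of the list had effects that differed between stretch and tachycardia by limma's test of the difference itself (unadjusted p under 0.05 and at least 1.2-fold, n = 3 arrays per group), none of them after adjustment, and more did with blocking on the replicate number (11 and 13 genes). The stretch effect exceeded the tachycardia effect for Prim1 by 0.59 (SE 0.17, adjusted p = 0.592), for Tyms by 0.43 (SE 0.20, adjusted p = 0.809) and for Ccne2 by 0.80 (SE 0.27, adjusted p = 0.664). The effect of KB-R7934 was more negative during stretch than during pacing for Mcm10 by -0.75 (SE 0.33, adjusted p = 0.799), for Prim1 by -0.45 (SE 0.17, adjusted p = 0.787), for Ccne1 by -0.46 (SE 0.19, adjusted p = 0.797), for Ccne2 by -0.73 (SE 0.27, adjusted p = 0.780) and for Brca1 by -0.52 (SE 0.21, adjusted p = 0.797). Duration and culture surface differ between the experiments together with the trigger and cannot be told apart from it.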

How the results depend on the processing

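None of the 8 calls for stretch and 17 for the inhibitor during stretch changed sign under any alternative run. The median over the 40 genes ranged with single arrays left out from 0.14 to 0.35 for stretch, from -0.39 to -0.27 for the inhibitor during stretch, from -0.14 to 0.05 for pacing and from -0.20 to 0.00 for the inhibitor during pacing. It moved by less than the replicate spread with quantile normalization and with the mean of a gene's clusters. The replicate block, all 18 arrays or only the 2 groups in the fit cannot change a difference of group means in this balanced design. Leaving out the dimmest clusters or those without exactly 1 gene symbol cannot change it either, so these runs do not test the median. Counts past the threshold moved more, and the cause was not tested. Where no share of all clusters stands beside a count, a change particular to these genes cannot be read from it. For stretch the 8 genes became 13 with the replicate block, 3 by the methods' t-test, 1 at 1.5-fold and 3 to 18 with single arrays left out. For the inhibitor during stretch the 17 became 8 at 1.5-fold and 10 to 20 with single arrays left out. With the replicate block 21 were lower, against 6.21% of all clusters. The block added Mcm3, Cdc6, Rfc4 and Chaf1a to the 17, and the smallest adjusted p by limma was 0.0529, for Gins1. Same-numbered arrays of this comparison correlated in their deviations at 0.09 to 0.16, so not every pair was over the limit set for pairing. For ST+KB-R7934 against ST control the 3 became 8 with the replicate block and 1 to 4 with single arrays left out. Of the genes passing with the block, Pola2 was higher and the others lower, where 6.89% of all clusters were lower and 5.66% higher. For pacing the 0 became 1 with the replicate block and 1 by the methods' two-way ANOVA, and stayed 0 to 0 with single arrays left out. For the inhibitor during pacing the 0 became 4 with the replicate block and by the two-way ANOVA, 1 with all 18 arrays in 1 fit, 1 with only the 2 groups, 1 over clusters with 1 gene symbol, 1 by the t-test and 0 to 3 with single arrays left out. For TC+KB-R7934 against TC control the 2 became 6 with the replicate block, all lower (5.47% of all clusters were), and 0 to 5 with single arrays left out. For the stretch minus the tachycardia effect the 3 became 11 with the replicate block, 5 with limma's trend and robust options and 2 to 14 with single arrays left out. For the inhibitor's effects the 5 became 13 with the replicate block and 1 to 10 with single arrays left out. Gins1 and Mcm4 in the stretch comparison, and Mcm6, Mcm10, Gins1, Cdc45, Orc6, Rfc2, Prim1, Ccne1 and Ccne2 in the inhibitor comparison during stretch, passed the threshold whichever single array was left out. Of the other calls for stretch, leaving out ST replicate 1 or ST control replicate 2 ended those of Mcm6, Gmnn, Prim1, Ccne1 and Chaf1a, and leaving out ST replicate 2 or ST control replicate 3 those of Mcm6, Gmnn, Ccne2 and Chaf1a. Over all alternatives the smallest differences were 0.40 for Mcm6, 0.31 for Gmnn, 0.24 for Prim1, 0.22 for Ccne1, 0.37 for Ccne2 and 0.35 for Chaf1a. For the inhibitor during stretch, leaving out ST replicate 1 ended the calls of Gins2, Gmnn, Rfc5, Pole2, Rrm2, Uhrf1 and Brca1, and ST+KB-R7934 replicate 3 those of Gins2, Gmnn, Rfc5, Pole2, Rrm2 and Uhrf1, with smallest differences of -0.18 for Gins2, -0.38 for Gmnn, -0.27 for Rfc5, -0.28 for Pole2, -0.75 for Rrm2, -0.53 for Uhrf1 and -0.35 for Brca1. With 3 arrays a group, intervals stay wide.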

Other observations

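A second cluster of its own was measured for 2 genes. The dimmer cluster of Mcm3, an MCM helicase subunit, differed by 0.55 (SE 0.19, adjusted p = 0.525) between ST and ST control and would have passed the threshold, while the brighter one used above stood at 0.39 (SE 0.30). The dimmer cluster of Fen1, the endonuclease that trims Okazaki fragments, differed by 0.35 (SE 0.14, adjusted p = 0.614) and would have passed too. The brighter one of Fen1 stood at -0.01 (SE 0.18). For the inhibitor during stretch the dimmer clusters stood at -0.36 (SE 0.19) for Mcm3 and -0.21 (SE 0.14) for Fen1, and neither passed.

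A pair of other promoter motifs was searched in the same windows on either strand. CCAAT was found in 19 of the 35 promoters (54.3%), against 37.5% of all promoters, and in 10 of the 12 of the helicase group. TTTGAA, the letters of the cell cycle homology region of many G2/M genes, was found in 3 of 35 (8.57%), against 18.3% of all promoters.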
